A study of Canis lupus familiaris with 30 samples.

Results

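The comparison set 10 well differentiated against 14 moderately differentiated canine follicular thyroid carcinomas (FTC), 24 of the 30 tumors with RNA-seq in the series. Each tumor was a surgical specimen from a pet dog with spontaneous disease. RNA of frozen tissue was sequenced without its ribosomal part, and reads were counted per gene. The degree of differentiation was read by pathologists on stained sections and was not measured by sequencing, so the gene values did not set the grade of a tumor. The sections were of fixed tissue, so grade and RNA came from different pieces of a tumor and may differ where a tumor is uneven. The 5 medullary carcinomas (MTC) were not used. TC1088, a moderately differentiated FTC, was left out, a choice taken from the study's methods, and is included only as an alternative.

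The well differentiated FTC were TC1593, TC1744, TC1869, TC1953, TC1994, TC2110, TC2288, TC627, TC67 and TC815. The moderately differentiated FTC were TC1123, TC1164, TC1213, TC1218, TC1241, TC1979, TC2011, TC2089, TC22, TC2402, TC538, TC640, TC812 and TC902. The groups also differed in growth pattern. The well differentiated tumors were follicular in 7 and follicular-compact in 3, whereas the moderately differentiated tumors were follicular in 3, follicular-compact in 10 and compact in 1 (TC22). Necrosis was recorded in 9 of the 10 well differentiated and 7 of the 14 moderately differentiated tumors. The dogs were 5 females and 5 males in the first group and 8 females and 6 males in the second. Each specimen was bulk tissue that held stroma and vessels beside tumor cells, and fewer cells of a type cannot be told apart from less RNA per cell.

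Grading of a follicular carcinoma rests on how closely the tumor keeps the look of the gland, with follicles that hold colloid. Colloid is stored thyroglobulin (TG), which follicular cells make, iodinate with the help of the dual oxidases, and take up again to release hormone. Iodide enters through the sodium iodide symporter SLC5A5, and thyrotropin drives the whole programme through its receptor TSHR, while PAX8 is one of the transcription factors that keep it on.

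Counts on genes ranged from 18275492 to 45148677 per tumor in the well differentiated group and from 12288945 to 36516349 in the moderately differentiated group. Size factors ranged from 0.708 to 1.22 and from 0.281 (TC538) to 1.62, respectively. Normalized counts are counts divided by the size factor, and a positive log2 fold change means higher in the well differentiated group. Over all genes, Spearman's correlation of pairs of tumors had a median of 0.909 within the well differentiated group, 0.897 within the other and 0.904 between them. On the first 3 principal components of the 1000 most variable genes the groups overlapped, and the first, which held 13.8% of the variance, ran from -49.02 to 41.86 in the well and from -32.32 to 59.75 in the moderately differentiated tumors. The thyroid origin of the tissue was seen in all 24 tumors, in which *PAX8* had between 1816 and 31500 normalized counts and *TSHR* between 1722 and 17505.

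Whether gene expression follows the grade was tested over 18009 genes. With edgeR's quasi-likelihood test, 0 genes (0%) had a Benjamini-Hochberg adjusted p below 0.05, and the smallest adjusted p was 0.306, shared by 8 genes. At an unadjusted p below 0.05, edgeR gave 808 genes (4.49%), of which 305 (1.69%) were higher in well and 503 (2.79%) higher in moderately differentiated tumors. DESeq2 on the same counts called 37 genes (0.205%), 12 higher in well (0.0666%) and 25 higher in moderately differentiated FTC (0.139%), and gave 918 (5.1%) an unadjusted p below 0.05. Of these 37 genes, 36 had an edgeR unadjusted p below 0.05 and 9 were HOX genes. By default DESeq2 can replace a count that lies far from the rest of its group, and which counts it replaced was not listed. No gene separated the groups, since the ranges overlapped for each of the 18009 (0% did not overlap). The median standard error of a log2 fold change was 0.349, and 0.303 for the 11975 genes with a mean normalized count of at least 100. Leaving out 1 tumor at a time kept the edgeR count of calls at 0 in every fit, with 670 to 1010 genes at an unadjusted p below 0.05. The genes named next are therefore those with the smallest unadjusted p, and each is a candidate that did not pass the edgeR test. A DESeq2 adjusted p below 0.05 beside a gene marks a call by DESeq2 alone.

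**Figure D1:**
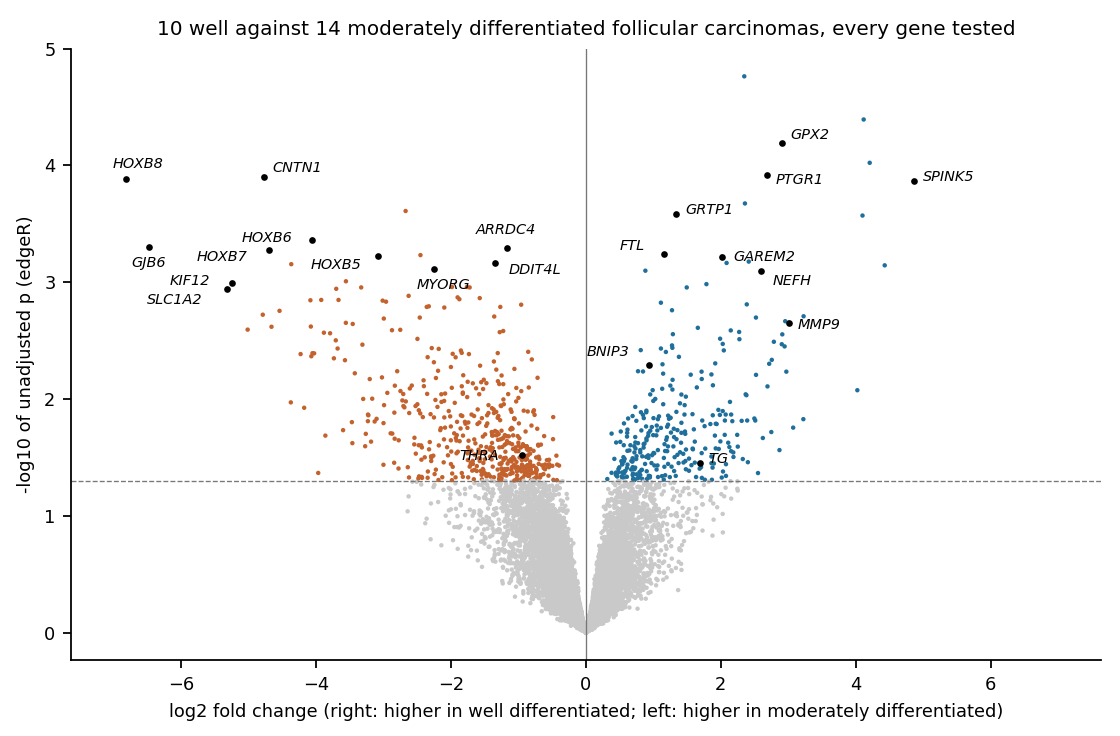
Each point is 1 of the 18009 genes tested, with the log2 fold change of 10 well over 14 moderately differentiated FTC on the horizontal axis and -log10 of edgeR's unadjusted p on the vertical axis. The dashed line marks an unadjusted p of 0.05, coloured points lie above it, and black points are genes given in the text. No gene passed the adjusted threshold, and the named points farthest to the left are *HOXB8* (-6.81) and *GJB6* (-6.47).

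On the well differentiated side, *PTGR1*, *GPX2*, *FTL* and *PRDX6* were among the genes with the smallest p, and they are described together because of what they encode, a grouping made after the values were seen and not tested. *GRTP1*, described further on, had a smaller p than *FTL* and *PRDX6*, and *GAREM2* a smaller one than *PRDX6*. *PTGR1* encodes a reductase that uses NADPH to inactivate leukotriene B4 and reactive aldehydes. It had 815.3 to 38916 normalized counts (median 2208) in well and 396.4 to 4108 (median 973.6) in moderately differentiated tumors. The log2 fold change was 2.69 ± 0.60 (standard error; edgeR p = 0.000121, adjusted p = 0.306; DESeq2 adjusted p = 0.0027). TC1744 (38916) and TC1994 (25029) lay above every moderately differentiated tumor, and the other 8 well differentiated tumors lay within their range. Without TC1744 the log2 fold change was 1.92 (edgeR unadjusted p = 0.00119). It was 3.73 among follicular tumors alone and 0.24 among follicular-compact tumors alone.

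*GPX2*, a selenium-dependent glutathione peroxidase of epithelia, had 9.00 to 687.5 normalized counts (median 25.4) in well and 4.21 to 25.96 (median 17.0) in moderately differentiated tumors, a log2 fold change of 2.90 ± 0.61 (edgeR p = 6.49e-05, adjusted p = 0.306; DESeq2 adjusted p = 0.0015). The 5 highest tumors were all well differentiated, led by TC1994 (687.5), TC2110 (197.2) and TC1744 (88.52). Without TC1994 the value was 1.67 (edgeR unadjusted p = 0.00128), and with TC1088 included it was 1.36. It was 3.23 within follicular and 0.61 within follicular-compact tumors. *FTL*, the ferritin light chain that stores iron, had 5384 to 31185 (median 12837) against 3144 to 11790 (median 5733), a log2 fold change of 1.16 ± 0.30 (edgeR p = 0.000578, adjusted p = 0.517). Again 5 well differentiated tumors exceeded all 14 others and 7 moderately differentiated tumors fell short of all 10. *PRDX6*, a peroxiredoxin that repairs oxidized phospholipids, had 1805 to 8527 (median 4205) against 1217 to 4297 (median 2280), a log2 fold change of 0.88 ± 0.23 (edgeR p = 0.000798, adjusted p = 0.519). TC627 and TC2110 were its highest tumors. Ferritin and peroxiredoxin genes have processed copies in mammalian genomes, and how the counting treated reads shared with such copies is not given in the sources used here.

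Because these 4 genes act in redox or iron handling, others of that kind were read afterwards, chosen with the values of the first in view, and 10 of them are given here. *NQO1*, a quinone reductase, had 197.0 to 21547 normalized counts (median 1542) in well and 164.9 to 3544 (median 774.5) in moderately differentiated tumors. This gave a log2 fold change of 1.92 ± 0.63 (edgeR p = 0.00496, adjusted p = 0.757). TC1744 (21547) and TC1994 (9473) were again the highest 2 of the 24 tumors, and without TC1744 the value was 1.03. TC1744 and TC1994 also led for *GSR*, glutathione reductase (4019 and 3346; log2 fold change 0.90 ± 0.34, edgeR p = 0.013, adjusted p = 0.955). For *SLC7A11*, the cystine importer, TC1994 had 1560 and TC1744 had 1351 against 312.8 in the highest moderately differentiated tumor (1.99 ± 0.83, p = 0.0231, adjusted p = 1), and for *TXNRD1*, thioredoxin reductase, 6487 in TC1994 and 10609 in TC1744 (0.52 ± 0.21, p = 0.019, adjusted p = 1). The other genes of this kind had a negative log2 fold change or a larger p. *GCLC*, the catalytic subunit for glutathione synthesis, was higher in moderately differentiated tumors by the fit (-1.29 ± 0.62, p = 0.0488, adjusted p = 1), where TC2089 held 113506, and without TC2089 the value was -0.73. *SRXN1* (0.58), *HMOX1* (0.58), *PGD* (0.40), *ME1* (-0.22) and *FTH1* (0.01) had unadjusted p between 0.125 and 0.978. TC1744 (989.5) and TC1994 (669.1) were also the highest 2 tumors for *SRXN1*. TC1994 led *HMOX1* (6426) and TC1744 led *PGD* (14060) and *FTH1* (91935), whereas TC2089 led *ME1* (21363). TC1744 and TC1994 both had the follicular pattern. With growth pattern as a covariate the log2 fold change was 1.96 for *PTGR1* (edgeR unadjusted p = 0.0512), 1.92 for *GPX2* (p = 0.0307) and 1.38 for *NQO1* (p = 0.161). That of *SLC7A11* was 0.61 (p = 0.644), of *GSR* 0.59 (p = 0.206) and of *GCLC* -0.41 (p = 0.661). Within follicular-compact tumors *SLC7A11* (-0.98) and *GSR* (-0.19) turned negative and *NQO1* was at 0.075, and within follicular tumors *GCLC* turned positive (1.00).

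Of the remaining genes on the well differentiated side, *GRTP1* and *GAREM2* were high over much of the group. *GRTP1*, a TBC-domain protein regulated by growth hormone, had 72.0 to 538.7 normalized counts (median 250.6) in well and 32.0 to 195.6 (median 104.8) in moderately differentiated tumors. The log2 fold change was 1.34 ± 0.32 (edgeR p = 0.000261, adjusted p = 0.404; DESeq2 adjusted p = 0.0174), 1.00 within follicular and 1.57 within follicular-compact tumors. Well differentiated tumors above every moderately differentiated one numbered 6, and TC1953 (72.03) lay within the moderately differentiated range. *GAREM2*, an adaptor of growth factor signaling, had 47.2 to 1858 (median 442.6) against 36.9 to 367.7 (median 120.0), a log2 fold change of 2.02 ± 0.52 (p = 0.000604, adjusted p = 0.517; DESeq2 adjusted p = 0.0406). For this gene too 6 well differentiated tumors exceeded all of the others. *PGAP2*, which matures glycosylphosphatidylinositol anchors, had 237.3 to 2139 (median 738.1) against 157.2 to 1075 (median 344.7), a log2 fold change of 1.28 ± 0.37 (p = 0.00174, adjusted p = 0.567).

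A further 5 genes rested more on single tumors. *NEFH*, the heavy neurofilament protein, reached 2478 in TC1744, 1176 in TC1593, 953.3 in TC2288 and 779.3 in TC1994 against at most 334.4 in the moderately differentiated group. The log2 fold change was 2.60 ± 0.69 (edgeR p = 0.000807, adjusted p = 0.519; DESeq2 adjusted p = 0.0262), 0.75 with growth pattern as a covariate and -1.23 within follicular-compact tumors. *ATP1A4*, a sodium pump subunit best known from sperm, was highest in TC1744 (5440), TC1994 (1540) and TC1869 (1025), and its log2 fold change of 2.52 ± 0.74 was 1.28 without TC1744 and 0.48 with pattern as a covariate. Its median was 123.7 in well and 128.7 in moderately differentiated tumors. *SFRP5*, a secreted antagonist of Wnt ligands, had 1303 in TC627 and 274.3 in TC2288 against a highest value of 127.3 in the moderately differentiated group, and its log2 fold change of 1.79 ± 0.49 was 0.65 without TC627. *MMP9*, a gelatinase of neutrophils and macrophages among other cells, had 1011 in TC1994 and 110.6 in TC1869 but a median of 12.8 in well and 6.06 in moderately differentiated tumors. *CD4*, a T helper cell and macrophage receptor, had 2329 in TC1994 and a median of 94.9 against 79.4. Without TC1994 the log2 fold change of *MMP9* went from 3.01 to 0.59 and that of *CD4* from 2.15 to 0.69. Over all tumors the edgeR unadjusted p of *ATP1A4*, *SFRP5*, *MMP9* and *CD4* lay between 0.00104 and 0.00259 and their adjusted p between 0.542 and 0.63. By DESeq2 the log2 fold change was 0.605 for *SFRP5* and 0.547 for *MMP9*, but 2.55 for *ATP1A4* and 2.13 for *CD4*.

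**Figure D2:**
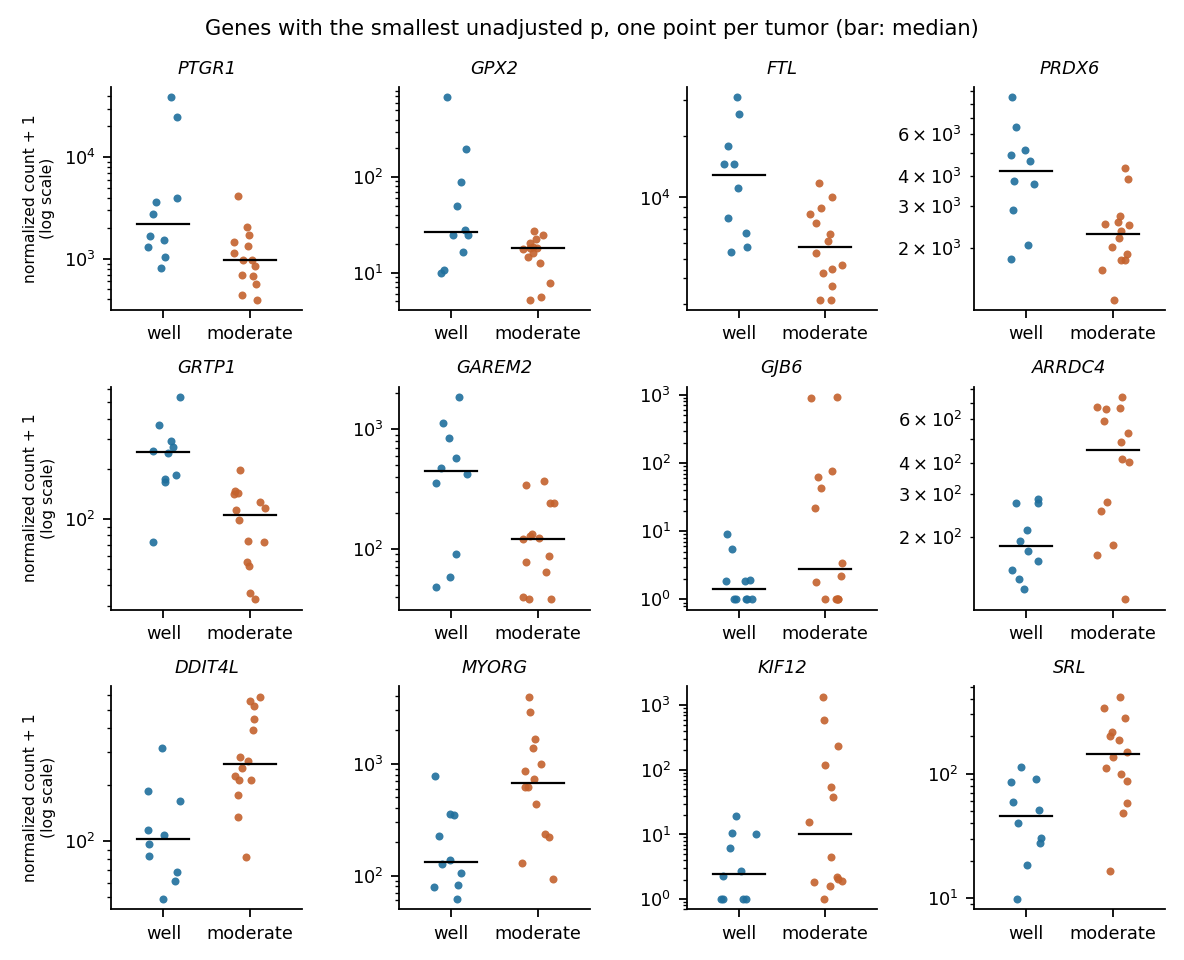
Normalized count plus 1, on a log axis, of 12 genes with small unadjusted p in each well (blue) and moderately differentiated (orange) FTC, with 1 point per tumor and a bar at the median. The groups overlap for every gene, and the high values of *PTGR1* rest on TC1744 (38916) and TC1994 (25029) whereas those of *ARRDC4* are spread over 9 moderately differentiated tumors above the highest well differentiated one (284.4).

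On the moderately differentiated side, *ARRDC4*, *SRL*, *MYORG* and *DDIT4L* were spread over many tumors. *ARRDC4*, an alpha-arrestin related to the glucose-responsive TXNIP, had 122.4 to 284.4 normalized counts (median 183.0) in well and 110.7 to 740.3 (median 448.2) in moderately differentiated tumors. Its log2 fold change was -1.17 ± 0.29 (edgeR p = 0.000508, adjusted p = 0.517; DESeq2 adjusted p = 0.0415), -1.62 within follicular and -0.996 within follicular-compact tumors. Of the 14 moderately differentiated tumors, 9 lay above every well differentiated one and only TC2089 (110.7) lay below them all. *SRL*, the calcium-binding sarcalumenin, had 8.80 to 111.8 (median 44.9) against 15.6 to 415.9 (median 142.1), a log2 fold change of -1.72 ± 0.47 (p = 0.00111, adjusted p = 0.542; DESeq2 adjusted p = 0.0435), with 8 moderately differentiated tumors above all 10 others.

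*MYORG*, a glycosidase of the secretory pathway, had 60.7 to 769.9 (median 132.2) in well and 92.4 to 3980 (median 674.4) in moderately differentiated tumors, a log2 fold change of -2.25 ± 0.59 (edgeR p = 0.000772, adjusted p = 0.519; DESeq2 adjusted p = 0.0232). TC22 (3980), TC640 (2894), TC2402 (1666) and TC1218 (1367) were highest, and TC1953 (769.9) was the one well differentiated tumor above the moderately differentiated median. *DDIT4L*, an inhibitor of mTOR signaling under stress, had 48.0 to 312.4 (median 101.3) against 81.2 to 591.2 (median 256.4), a log2 fold change of -1.35 ± 0.35 (p = 0.000682, adjusted p = 0.517; DESeq2 adjusted p = 0.0426). TC627 was its highest well differentiated tumor, and without TC627 the value was -1.59 (unadjusted p = 9.31e-05).

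Other genes on this side were near 0 in most tumors and high in a few. *GJB6*, the gap junction protein connexin 30, had at most 8.21 normalized counts in the well differentiated group, whereas TC640 had 936.3, TC902 903.0, TC22 74.4, TC538 60.4, TC1218 42.5 and TC1241 21.2. Its log2 fold change was -6.47 ± 1.63 (edgeR p = 0.000499, adjusted p = 0.517), and DESeq2 gave an adjusted p of 0.41. *KIF12*, a kinesin of epithelial cells, had at most 18.0 in well and up to 1363 (TC640), 595.1 (TC1241) and 236.5 (TC1979) in moderately differentiated tumors, a log2 fold change of -5.25 ± 1.42 (p = 0.00101, adjusted p = 0.542). In any well differentiated tumor *GJB6* had at most 10 and *KIF12* at most 20 raw counts. The moderately differentiated tumors alone were enough for both to pass the count filter, so these values describe them and are no separate support. *CNTN1*, a neural adhesion molecule named after its values were seen, had at most 4.24 in well and up to 237.6 (TC1123) in moderately differentiated tumors, with 7 of these above all well differentiated ones. The fit gave a log2 fold change of -4.78 ± 1.06 (p = 0.000125, adjusted p = 0.306; DESeq2 adjusted p = 0.000694). *CNTN1* had at most 3 raw counts in any well differentiated tumor. It passed the count filter through moderately differentiated tumors alone, so these values describe it and are no separate support.

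*VIT*, an extracellular matrix protein, and *SLC1A2*, a glutamate transporter, rested on TC1241. That tumor held 8409 normalized counts of *VIT*, against 533.8 in the next, and 3507 of *SLC1A2*, against 39.1 in the next. Without TC1241 the log2 fold change of *VIT* went from -3.33 to -1.30 and that of *SLC1A2* from -5.32 to -0.75 (edgeR unadjusted p = 0.199). With TC1241 the unadjusted p had been 0.00111 and 0.00114, and the adjusted p was 0.542 for both. DESeq2, given all 24 tumors, had a log2 fold change of -1.25 for *VIT* and -0.74 for *SLC1A2*. Whether it replaced the counts of TC1241 by its default settings was not read out. TC1241 was also the highest of the 24 tumors for *TNC*, *DUSP6*, *EGR2* and *EGR3*.

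A pattern concentrated in few tumors was that of the HOX genes, homeobox transcription factors that set position along the body axis and lie in 4 clusters, A to D. Reading them as a family was decided after several had come up among the smallest p. In the table, 17 HOX genes passed the count filter. TC640, TC1218, TC22 and TC2011, all moderately differentiated, were the 4 highest tumors for 8 of 8 *HOXB* genes and for 4 of 5 *HOXA* genes. The growth pattern was follicular in TC640, compact in TC22 and follicular-compact in TC1218 and TC2011.

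*HOXB8* had 1.27 to 7.06 normalized counts (median 5.27) in well and 0 to 4452 (median 7.14) in moderately differentiated tumors. TC2011 held 4452, TC22 1441, TC1218 1147 and TC640 980.9, TC1979 followed with 37.0, and the other 9 moderately differentiated tumors had at most 14.2. The log2 fold change was -6.81 ± 1.52 (edgeR p = 0.000131, adjusted p = 0.306; DESeq2 adjusted p = 5.73e-06), and it stayed between -6.93 and -5.83 with each tumor left out in turn. *HOXB8* had at most 7 raw counts in any well differentiated tumor. It too passed the count filter through moderately differentiated tumors alone, so these values are no separate support. *HOXB6* had at most 25.2 in well and 1468, 759.0, 584.7 and 479.8 in TC2011, TC1218, TC22 and TC640, followed by TC1979 with 90.9. This gave a log2 fold change of -4.06 ± 1.01 (p = 0.000432, adjusted p = 0.517; DESeq2 adjusted p = 0.000694). *HOXA3* had at most 22.6 in well and 1076 in TC640, 790.4 in TC22, 705.2 in TC2011 and 408.8 in TC1218, a log2 fold change of -4.08 ± 1.21 (p = 0.0024, adjusted p = 0.63; DESeq2 adjusted p = 0.0415). Medians in well and moderately differentiated tumors were 5.27 and 7.14 for *HOXB8*, 12.99 and 22.73 for *HOXB6*, and 12.04 and 10.36 for *HOXA3*. The size of the fold changes thus rests mostly on 4 tumors and does not describe all 14. For *HOXB8* and for *HOXB6*, 7 moderately differentiated tumors lay above every well differentiated tumor.

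Over the clusters, the median log2 fold change was -3.67 for the 5 *HOXA* and -3.88 for the 8 *HOXB* genes, all 13 with an unadjusted p below 0.05, of which DESeq2 called 3 and 6, where 4.49% of all genes had such a p and DESeq2 called 0.205%. The family was picked because members stood among the smallest p, so these counts describe it and test nothing. *HOXA13*, the member of its cluster that is expressed farthest toward the tail, differed from the others: TC812 was highest with 395.5 and the 4 tumors had 2.11 to 6.17. Neither the 2 *HOXC* nor the 2 *HOXD* genes had an unadjusted p below 0.05. *HOXC4* had 501.9 to 733.7 in the same 4 tumors, yet also 409.7 in the well differentiated TC1593, and *HOXC6* was highest in TC22 (586.2) and TC1593 (392.7). Antisense transcripts are interleaved with HOX genes, and the strand setting of the counting is not given in the sources used here, so reads from either strand cannot be told apart.

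**Figure D3:**
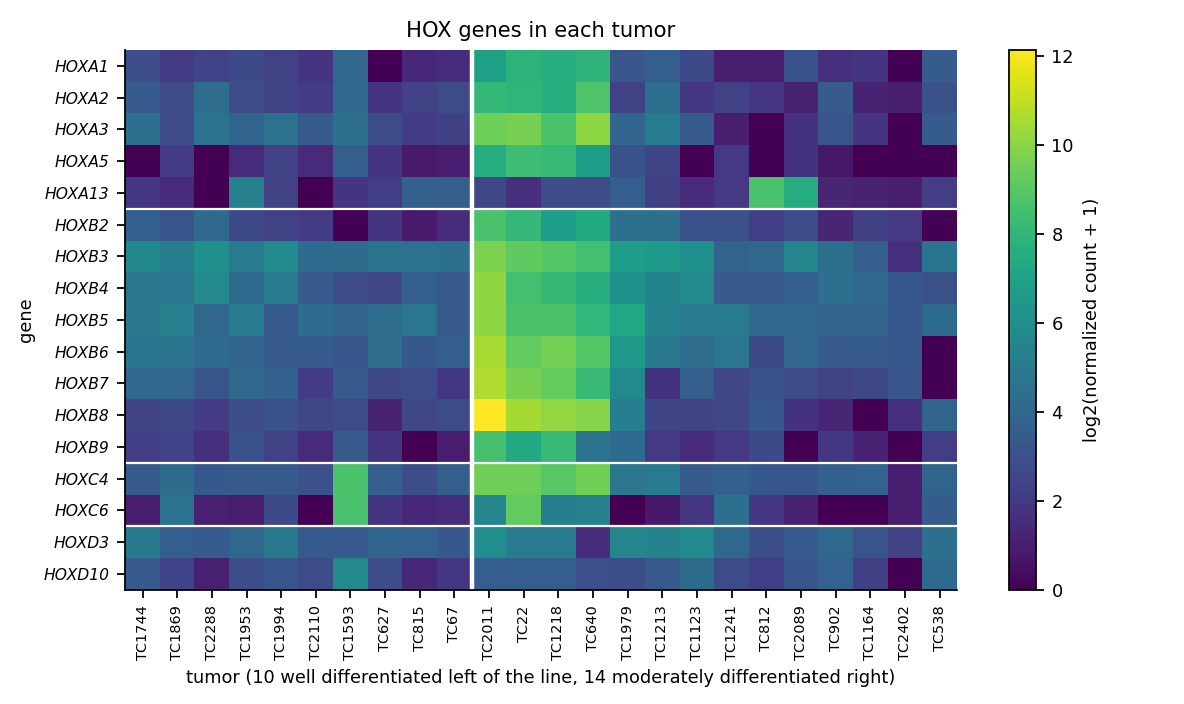
Log2 of the normalized count plus 1 (color) of the 17 HOX genes tested (vertical axis, grouped by cluster) in each tumor (horizontal axis, well differentiated left of the white line, ordered by mean *HOXB* level within each group). TC2011, TC22, TC1218 and TC640 stand out for the *HOXB* genes and for 4 of 5 *HOXA* genes, and TC1593 is the one well differentiated tumor with high *HOXC4* (409.7) and *HOXC6* (392.7).

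The 14 listed genes of thyroid differentiation were read as a set, because they are what the grade would be read against. Of the 14 genes, 10 had a positive and 4 a negative log2 fold change, with a median of 0.34 (0.16 with growth pattern and 0.102 with necrosis as a covariate), where 43.5% of all genes tested were positive and the median was -0.047. None passed the adjusted threshold in edgeR or DESeq2, and *TG* and *THRA* had an edgeR unadjusted p below 0.05. *TG* ran from 11363 to 6624689 normalized counts (median 927637) in well and from 8183 to 2460748 (median 366342) in moderately differentiated tumors. Its log2 fold change was 1.68 ± 0.76 (edgeR p = 0.0353, adjusted p = 1), with 1.37 within follicular and 1.43 within follicular-compact tumors. TC1869, TC627 and TC1994 exceeded all moderately differentiated tumors, whereas TC815 (well), TC1241 and TC1979 (moderate) held 11363, 8881 and 8183, and without TC1869 the value was 1.20 (unadjusted p = 0.121). *TG* alone took 0.0512% to 16.7% of a library's counts in the well and 0.0364% to 9.60% in the moderately differentiated group.

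The other hormone synthesis genes spanned similarly wide ranges. *SLC5A5* had 142.3 to 120834 (median 14561) in well and 0 to 80209 (median 5762) in moderately differentiated tumors, a log2 fold change of 0.95 ± 1.05 (edgeR p = 0.372) that was 2.82 within follicular and -1.10 within follicular-compact tumors. The dual oxidases, which supply the hydrogen peroxide that iodination needs, went opposite ways, with 0.70 ± 0.44 for *DUOX1* (p = 0.122) and -0.19 ± 0.63 for *DUOX2* (p = 0.76). *SLC26A4*, the anion exchanger pendrin, was at 0.34 ± 0.72, and *SLC5A8*, a monocarboxylate transporter of the apical membrane, at 0.61 ± 0.83. *DIO1* and *DIO2*, the deiodinases that activate hormone, were at 0.34 ± 0.48 and -0.54 ± 0.59, and *DIO2* had at most 38.1 normalized counts in any tumor.

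Among receptors and regulators, *TSHR* had medians of 6128 and 6243, with a log2 fold change of 0.25 and a 95% interval from -0.49 to 0.99. For *PAX8* the value was -0.03, with an interval from -0.64 to 0.59 and medians of 11349 in well and 15172 in moderately differentiated tumors. *GLIS3*, a transcription factor needed for hormone production, had medians of 1927 and 1215, a log2 fold change of 0.64 ± 0.33 (edgeR p = 0.068, adjusted p = 1) and 5 well differentiated tumors above all others. Among thyroid hormone receptors, *THRB* was at 0.33 ± 0.44. *THRA* had 131.5 to 436.8 (median 244.2) in well and 39.1 to 1249 (median 418.3) in moderately differentiated tumors, a log2 fold change of -0.95 ± 0.41 (p = 0.0304, adjusted p = 1). TC2011 and TC640 led it and 7 moderately differentiated tumors exceeded all 10 others. *THRA* overlaps *NR1D1* on the opposite strand, and without the strand setting its counts are uncertain.

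As a score, the mean over these 14 genes of log2 levels centred on each gene's median was 0.03 ± 1.07 (SD, n = 10) in well and -0.48 ± 0.99 (SD, n = 14) in moderately differentiated tumors. The difference of 0.50 was smaller than the SD of either group, and it was 0.88 with TC1088 included. The study's own differentiation score is a sum over a larger set of thyroid genes, so these means are not values of that score. The score ran from -1.95 (TC815) to 1.50 (TC1869) in the first group and from -2.21 (TC812) to 0.98 (TC2011) in the second. Within follicular tumors the means were 0.31 (n = 7) and 0.14 (n = 3), and within follicular-compact tumors -0.63 (n = 3) and -0.73 (n = 10). A difference in the effect of grade between follicular and follicular-compact tumors was tested as an interaction over 17928 genes. edgeR called 0 genes (0%), with 484 (2.7%) at an unadjusted p below 0.05, and DESeq2 called 6 (0.0335%), with 695 (3.88%) at an unadjusted p below 0.05.

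Partners of hormone synthesis outside that score gave no call either. Of 13 genes tested, 6 were positive and 7 negative with a median of -0.08, and none had an unadjusted p below 0.05. Over all genes, for this and the lists below, 43.5% were positive and 4.49% had such a p. *DUOXA1* and *DUOXA2*, the maturation factors of the oxidases, were at -0.39 and -0.38, *IYD*, which recycles iodide, at -0.26, and *SLC26A7* at -0.08. *LRP2*, the receptor megalin that takes up thyroglobulin, had the largest value at 1.27 ± 1.20 and medians of 266.5 and 76.2.

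**Figure D4:**
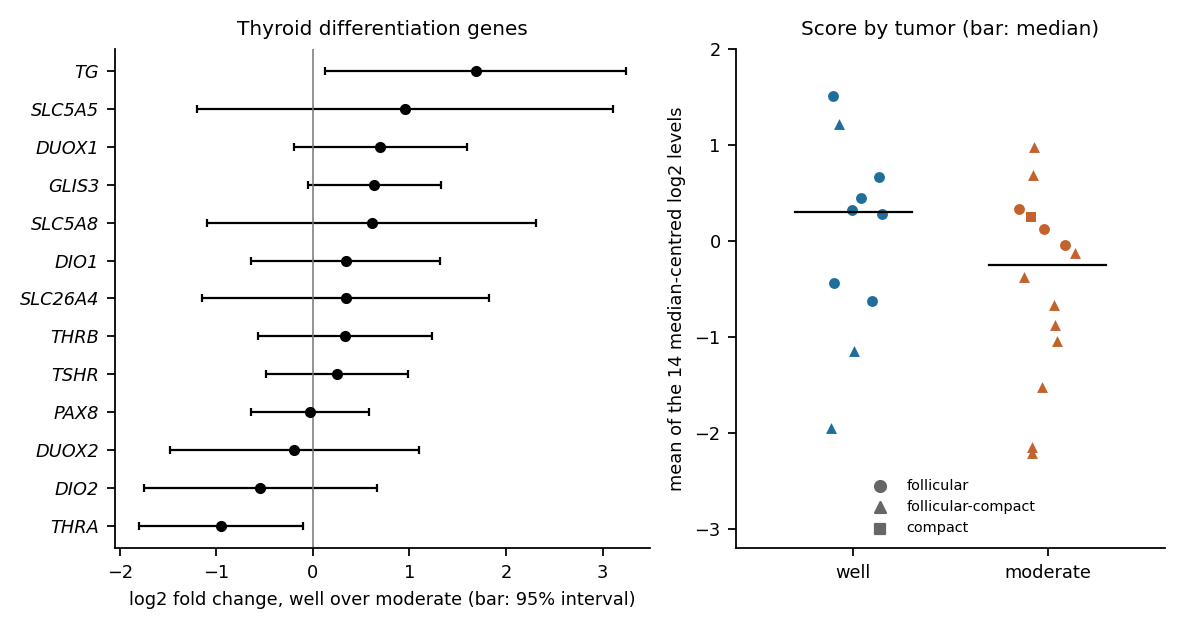
Left, the log2 fold change of well over moderately differentiated FTC for the thyroid differentiation genes given in the text, with 95% intervals from edgeR; only those of *TG* (1.68) and *THRA* (-0.95) leave out 0. Right, the mean of the 14 median-centred log2 levels in each tumor by grade, with growth pattern as symbol and a bar at the median; the groups overlap, from -1.95 to 1.50 and from -2.21 to 0.98.

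Cell cycle genes gave no call. Of 27 proliferation genes, 6 were positive and 21 negative with a median of -0.16, and 0 had an unadjusted p below 0.05. *CDC20*, an activator of the anaphase-promoting complex, was at -0.50 ± 0.44, with TC1979 (758.5) highest, and without TC1979 the value was -0.08. *TYMS*, thymidylate synthase, was at 0.26 ± 0.24. The summed level of the list ran from 8731 to 14135 in well and from 6732 to 18532 in moderately differentiated tumors.

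For signaling, the 10 genes of MAPK output had a median of -0.18, which turned to 0.265 with necrosis as a covariate. *DUSP6*, the phosphatase that ERK induces as its own brake, had 372.8 to 1512 (median 745.0) in well and 546.8 to 5669 (median 846.7) in moderately differentiated tumors, a log2 fold change of -0.82 ± 0.38 (edgeR p = 0.0406, adjusted p = 1). TC1241 held the 5669, and without TC1241 the value was -0.43 (unadjusted p = 0.163). With necrosis as a covariate it was -0.092 (p = 0.807). Immediate early genes had 2 positive and 9 negative values and a median of -0.29, which was 0.293 within follicular and -1.23 within follicular-compact tumors. *EGR2* was at -0.67 ± 0.54 (p = 0.224), or -0.23 without TC1241, and *EGR3* at -1.51 ± 0.76 (p = 0.0582), or -0.28 without TC1241. The 20 receptor tyrosine kinases were divided evenly, 10 positive and 10 negative, with a median of -0.01 and none at an unadjusted p below 0.05. *ERBB2*, which encodes HER2, had medians of 10574 and 7712 and a log2 fold change of 0.42 ± 0.29 (p = 0.163), and its highest tumor was TC1869 (32244). *MST1R*, the receptor of macrophage-stimulating protein, was at -0.72 ± 0.37 (p = 0.0609).

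Most genes of the stress lists had positive values. Of 14 unfolded protein response genes, 13 were positive with a median of 0.35, and 3 of them had an unadjusted p below 0.05. Over all genes, 43.5% were positive and 1.69% were higher in well differentiated tumors at such a p. *XBP1*, the transcription factor of secretory cells, had 1336 to 6359 (median 3287) in well and 1083 to 4745 (median 1932) in moderately differentiated tumors, a log2 fold change of 0.61 ± 0.25 (edgeR p = 0.021, adjusted p = 1). The chaperone *HSPA5* was at 0.69 ± 0.31 (p = 0.0322, adjusted p = 1) and *SDF2L1* at 0.92 ± 0.40 (p = 0.0304, adjusted p = 1), the latter 0.45 without TC627. Of 14 hypoxia and glycolysis genes, 9 were positive with a median of 0.27. *BNIP3*, a mitophagy receptor induced by low oxygen, had 706.6 to 3901 (median 1252) against 288.8 to 1790 (median 860.1), a log2 fold change of 0.93 ± 0.31 (p = 0.00511, adjusted p = 0.761). TC815, TC1744, TC2110 and TC1593 exceeded all moderately differentiated tumors, and the value was 1.06 with necrosis as a covariate. *ENO1*, a glycolytic enolase, was at 0.53 ± 0.25 (p = 0.046, adjusted p = 1), whereas *VEGFA* was at -0.11 and *CA9* at -0.58. The 15 respiratory chain genes stayed between -0.19 and 0.27.

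Interferon response genes were negative in 13 of 14, with a median of -0.30 and none at an unadjusted p below 0.05. Over all genes, 43.5% were positive and the rest negative. *OAS1* and *OAS2*, sensors of double-stranded RNA, were at -0.62 ± 0.42 and -0.51 ± 0.38, and both were highest in TC812. Of 13 genes of epithelial-mesenchymal transition, 11 were negative with a median of -0.24. *TNC*, the matrix protein tenascin C, was at -2.09 ± 0.74 (edgeR p = 0.00899, adjusted p = 0.893), with 16141 in TC1241 against 2950 in the next tumor, and without TC1241 it was -0.83 (unadjusted p = 0.108). *ZEB1*, a repressor of epithelial genes, had 311.5 to 1513 (median 603.4) in well and 177.9 to 4741 (median 994.5) in moderately differentiated tumors, a log2 fold change of -1.11 ± 0.44 (p = 0.0182, adjusted p = 1), and TC640 and TC538 led it. The 15 tight junction and polarity genes had a median of 0.03, with *CGN*, cingulin, at 0.52 ± 0.32 and *OCLN*, occludin, at 0.46 ± 0.33. Motile cilia genes were few at these depths, 9 tested with a median of -0.05, and *DNAI1* (-1.03) and *DNAH5* (-0.87) had medians under 10 normalized counts in both groups.

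Markers of other cell types were read to see what moved with the grades, and none was called. Over all genes, 43.5% were positive and the rest negative. Endothelial markers were negative in 11 of 12 with a median of -0.51, and their summed level ran from 12633 to 35348 (median 17421) in well and from 6365 to 45066 (median 27974) in moderately differentiated tumors. *EMCN*, endomucin, was at -0.87 ± 0.41 (edgeR p = 0.0448, adjusted p = 1), and *ENG*, endoglin, at -1.18 ± 0.59 (p = 0.0535), or -0.76 without TC2089. Pericyte markers were negative in 7 of 9 with a median of -0.27, with *RGS5* at -0.77 ± 0.38 and *CSPG4* at -0.63 ± 0.44. Fibroblast markers were balanced, 6 positive and 7 negative, with *DCN*, decorin, at 0.86 ± 0.83 and *PDGFRB* at -0.47 ± 0.39. The part of vessel content in the genes higher in moderately differentiated tumors was not tested.

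Macrophage markers were positive in 9 of 10, against 43.5% of all genes, with a median of 0.31 (0.65 within follicular and 0.096 within follicular-compact tumors). None had an unadjusted p below 0.05, with *AIF1* at 0.45 ± 0.29 and *CD68* at 0.43 ± 0.34, both highest in TC1994. T and NK cell markers were positive in 8 of 12 with a median of 0.13, and apart from *CD4* none had an unadjusted p below 0.05. *CD2* was at 0.56 ± 0.40, and 0.06 without TC1994. The 6 B and plasma cell markers had a median of 0.05, with *MZB1* at 0.53 ± 0.44. *CD79A* had medians of 12320 and 11889 although *MS4A1*, *CD79B* and *PAX5* were under the count filter.

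Neighbouring tissue was traced by 5 lists. Calcitonin cells were represented by 6 genes that went both ways, with *CALCA* at -2.35 ± 1.13 (edgeR p = 0.0473, adjusted p = 1), *SCG3* at 1.20 ± 0.47 (p = 0.0173, adjusted p = 0.994) and *PCSK1* at 2.18 ± 0.94 (p = 0.0287, adjusted p = 1), the last at 0.99 without TC1994. Medians in well and moderately differentiated tumors were 98.8 and 135.4 for *CALCA* and 187.1 and 97.3 for *SCG3*. Those of *PCSK1*, 6.09 and 9.62, went against the sign of its fold change, which was 0.917 by DESeq2. *CALCB* and *GFRA4* were under the count filter, and reads of the paralogs *CALCA* and *CALCB* could have been split. Of parathyroid markers only *CASR* was tested, while *PTH* and *GCM2* were under the filter. Skeletal muscle markers had a median of -0.80, 5 of 8 negative, but of -0.083 by DESeq2 and -0.474 with sex as a covariate. Their summed normalized count overlapped widely, from 2301 to 153210 with a median of 10465 in well and from 2192 to 80347 with a median of 16484 in moderately differentiated tumors, and its part in any other result was not tested. *MYH2*, a fast myosin, was high in TC2089 (1031) and TC2402 (562.6) and at most 36.1 elsewhere, and *CKM*, muscle creatine kinase, was at -1.31 ± 0.50 (p = 0.0145, adjusted p = 0.955). *PLIN1* and *PLIN4*, which coat fat droplets, were at -2.14 ± 0.76 (p = 0.00912, adjusted p = 0.893) and -0.99 ± 0.39 (p = 0.0162, adjusted p = 0.965), TC2089 again highest, and *PLIN1* was -0.84 without it. *PLIN1* had at most 11 raw counts in any well differentiated tumor, so its values are no separate support. *ALAS2*, the one red cell gene tested, was at 0.54 ± 0.30.

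**Figure D5:**
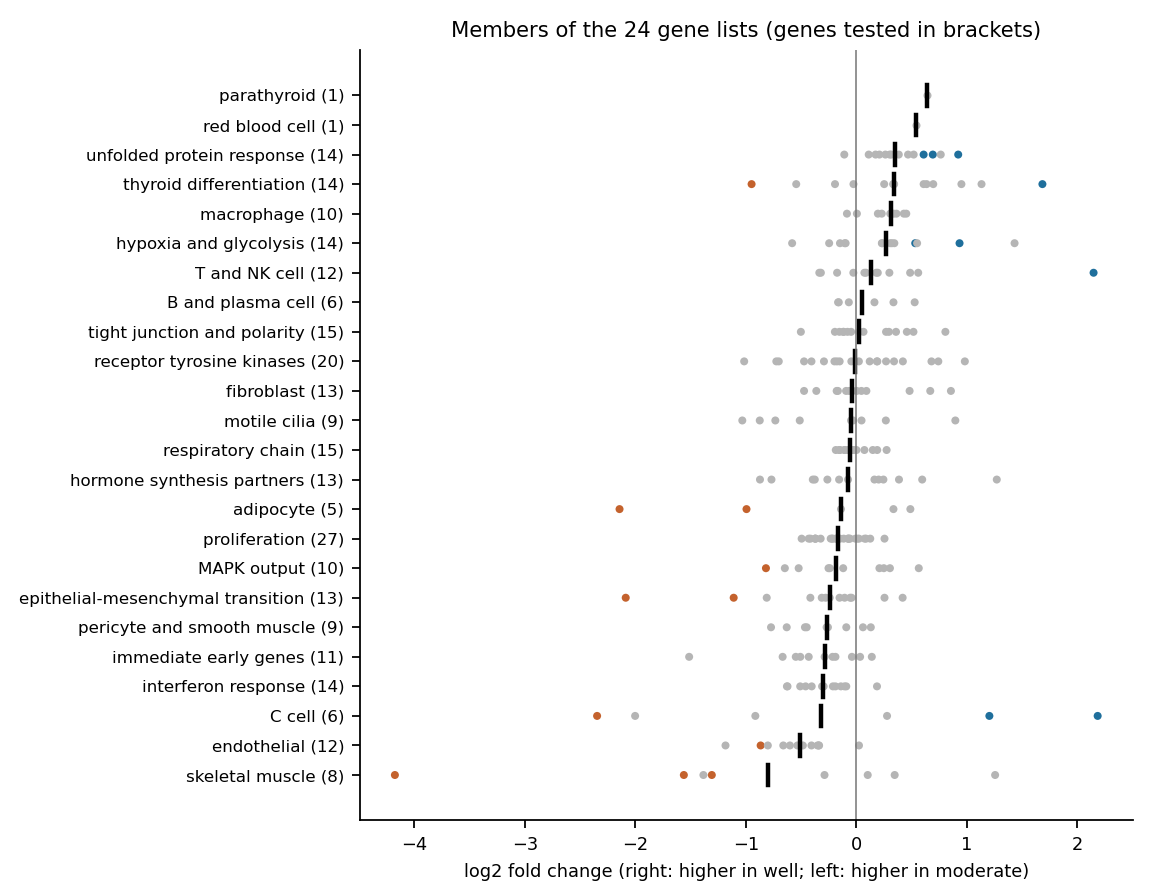
Log2 fold change of well over moderately differentiated FTC (horizontal axis) for each member of 24 gene lists (vertical axis, number of genes tested in brackets), with the list's median as a black bar and members at an unadjusted p below 0.05 in color. No member passed the adjusted threshold, and among lists with more than 1 gene the medians run from -0.80 (skeletal muscle, -0.083 by DESeq2) to 0.35 (unfolded protein response).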

How the data were processed

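RNA-seq of 24 canine FTC was used. Per the labels and methods, the authors aligned the read pairs with STAR against CanFam3.1, both named in the submitters' processing notes, and deposited raw counts of reads per Ensembl gene for 30 tumors in 1 table of 30424 genes, 15780 with a symbol. The strand setting of the counting is not given in the sources used here. It held 0 columns of no sample. The counts have no molecular identifiers, and total counts on genes of 12288945 to 45148677 per tumor set the precision. No sequencing date or batch is given in the labels, so no comparison within batches was made. Each tumor came from another dog. The grade, growth pattern and necrosis of each tumor came from the study's clinicopathologic table by tumor name, since the sample labels do not give them.

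A gene was tested where 5 or more of the tumors held 10 or more counts. The test was the two-sided quasi-likelihood test of edgeR 4.0.16 (R 4.3.3) after TMM scaling, with Benjamini-Hochberg adjustment and a threshold of 0.05. Standard errors are the fold change divided by the square root of the F statistic. DESeq2 1.42.0 was run with its default settings as an alternative, with 0 adjusted p-values given as NA. In groups of this size these settings replace counts flagged as outliers, so its fits need not use every count as deposited. Normalized counts are counts divided by median-of-ratios size factors over 16063 genes with a count in every tumor, and levels are log2 of these plus 1. The script was tested on simulated counts. Python 3.11.15 with numpy 2.4.6, scipy 1.17.1, pandas 2.3.3 and matplotlib 3.10.9 was used for the rest.

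Named genes were, in each direction, the 12 genes with the smallest unadjusted p among those that carry a symbol and average 100 or more normalized counts in whichever group is higher, since none was called, every thyroid differentiation gene, and 2 genes with the smallest p of each other list. The tumors and the 24 gene lists were chosen with earlier results of these data known. HOX and redox genes, *CNTN1*, *SPINK5*, *SOSTDC1* and list members beyond the first 2 were named after their values were seen. Of the 315 listed genes, 25 had no row. The values of a few named genes and list members are not reported here, but they count in the summaries of their lists.

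The alternatives were DESeq2, size factors in edgeR, no count filter, a stricter count filter (10 counts in 10 tumors), robust quasi-likelihood, growth pattern, sex or necrosis as covariate, follicular or follicular-compact tumors alone, TC1088 included, and each tumor left out in turn. For the score, TMM-scaled counts and a pseudocount of 8 were among them.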

Additional observations from a re-analysis of the deposited data

Results flagged for a closer look

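In the well differentiated group, 82 sets of levels were tested for a tumor far from the others, by the gap between the highest or lowest tumor and its neighbour as a share of the group's range (critical value 0.466 for 10 tumors, on log2 of the normalized count plus 1). In 7 of them the gap exceeded that value, and chance alone would give about 1 in 20 groups. TC815 lay far below the others for *TG* (share 0.517, level 13.47) and *DIO1* (0.597, level 5.37). TC627 lay far below for *HOXB8* (0.518, level 1.18) and *SDHB* (0.516, level 9.26) and far above for *SFRP5* (0.472, level 10.35). For *HOXB8* that gap is one of few reads, with 1 raw count in TC627 and at most 7 in any well differentiated tumor. TC1869 lay far above for *ERBB2* (0.48, level 14.98), and TC2288 far above for *CASR* (0.535, level 9.38). Without TC2288 the log2 fold change of *CASR*, the calcium-sensing receptor of parathyroid cells, went from 0.64 to -2.06, and without TC627 that of *SFRP5* went from 1.79 to 0.65.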

How the results depend on the processing

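The edgeR count of calls stayed at 0 in each direction with size factors, no count filter, a stricter filter, robust quasi-likelihood, growth pattern, sex or necrosis as covariate, either pattern alone, TC1088 included and every tumor left out in turn, and a fold limit of 1 or 2 could remove no call. DESeq2 alone differed, with 12 genes higher in well and 25 higher in moderately differentiated tumors, and 6 for the interaction; the cause was not tested, and 13 of the 81 named genes were among its calls. The interaction of edgeR stayed at 0 under 3 alternatives. The score difference of 0.50 was 0.34 to 0.72 with a tumor left out, 0.44 with a pseudocount of 8, 0.17 within follicular and 0.10 within follicular-compact tumors. No paired analysis was possible because each tumor came from a different dog and the labels give no shared replicate numbers. Over 886 other fits of named genes, 29 changed sign, the cause not tested: within follicular-compact tumors *NEFH* (-1.23), *ATP1A4* (-0.96), *MMP9* (-1.16), *CD4* (-0.31), *DIO1* (-0.52), *DUOX2* (0.45), *SLC26A4* (-0.63), *SLC5A5* (-1.10), *ANO1* (0.12), *CTSB* (-0.45), *SDHB* (-0.42), *SCG3* (-0.14), *PCSK1* (-0.48) and *CASR* (-2.65); within follicular tumors *PAX8* (0.048), *SLC5A8* (-0.34), *CDC20* (0.083), *EGR2* (1.23), *DNAH5* (1.47) and *CYCS* (0.005); with pattern as covariate *DIO1* (-0.01) and *DNAH5* (0.063); with necrosis *DIO1* (-0.21), *PAX8* (0.085), *EGR2* (0.042) and *DNAH5* (0.29); with TC1088 *PAX8* (0.073) and *CD79A* (-0.19); and with DESeq2 *CASR* (-0.56). Leaving out a tumor spanned 0 for *DUOX2* (-0.90 to 0.35), *PAX8* (-0.22 to 0.058), *SLC26A4* (-0.13 to 0.69), *CD79A* (-0.046 to 0.25) and *CASR* (-2.06 to 2.10). These lists cover the 81 genes named by the rule. Among genes named afterwards, it also spanned 0 for *HOXC6* (-3.63 to 1.75), *HOXD10* (-0.79 to 0.28), *FTH1* (-0.18 to 0.12) and *SOSTDC1* (-0.51 to 3.24). Signs of some of these later genes turned within a pattern too, such as *HMOX1* (-0.26) and *PGD* (-0.37) within follicular-compact tumors. Medians of other lists that changed sign were those of hormone synthesis partners (0.131), motile cilia (0.454), the respiratory chain (0.161), fibroblasts (0.047), B and plasma cells (-0.094), receptor tyrosine kinases (0.326) and C cells (0.727) within follicular tumors, hypoxia and glycolysis (-0.066) and tight junctions (-0.043) within follicular-compact tumors, tight junctions (-0.048), motile cilia (0.059), the respiratory chain (0.072) and receptor tyrosine kinases (0.096) with necrosis, receptor tyrosine kinases (0.004) with pattern, B and plasma cells (-0.007) with sex, and C cells (0.586) and receptor tyrosine kinases (0.064) with DESeq2. With 3 well differentiated follicular-compact and 3 moderately differentiated follicular tumors, values within a pattern rest on few tumors. With a median standard error of 0.349, small differences were not detectable.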

Other observations

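Genes that DESeq2 called and the naming rule did not reach, because they had few counts or no symbol, are given here as values, chosen after they were seen. *SOSTDC1*, an antagonist of BMP and Wnt signaling, had unlike values by edgeR and DESeq2, and the cause was not tested. Whether DESeq2 replaced the count of TC902 by its default settings was not read out. TC902 held 451.8 normalized counts against 18.3 in the next moderately differentiated tumor, and the well differentiated group reached 151.8 in TC1869. Its log2 fold change was -0.00 by edgeR (p = 0.999) and 3.20 by DESeq2 (adjusted p = 0.0259), and without TC902 edgeR gave 3.24 (unadjusted p = 0.000443).

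*SPINK5*, a serine protease inhibitor of stratified epithelia that DESeq2 did not call (adjusted p = 0.118), had up to 314.5 normalized counts in TC815 and 116.9 in TC2288 against at most 17.8 in the moderately differentiated group, a log2 fold change of 4.86 ± 1.09 (edgeR p = 0.000136, adjusted p = 0.306). *SPINK5* had at most 5 raw counts in any moderately differentiated tumor, so it passed the count filter through well differentiated tumors alone. ENSCAFG00000005494, a gene with no symbol in the table, had the smallest edgeR p (1.73e-05) with a log2 fold change of 2.35, and TC1744 was its highest tumor. On the other side, *GPR45*, an orphan receptor, had 9 and *ILDR2* 7 moderately differentiated tumors above all well differentiated ones, with log2 fold changes of -2.45 and -2.36 (DESeq2 adjusted p = 0.0285 and 0.0383).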
